A study of Homo sapiens with 30 samples.

Results

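The nuclear-encoded genes of the mitochondrial respiratory chain were followed across 30 RNA-seq libraries of A375, an established human melanoma line. Members were taken by symbol alone: NDUFA, NDUFB, NDUFC, NDUFS and NDUFV genes with a number, SDHA to SDHD, symbols that begin with UQCR or ATP5, and 10 named subunits of cytochrome c oxidase. The rule found 81 of 26364 listed genes. Of these, 36 belong to complex I, 4 to complex II, 8 to complex III, 11 to complex IV (NDUFA4 is counted there) and 15 to complex V. The other 7 are a read-through transcript (ATP5J2-PTCD1), copies of ATP5E, ATP5L, UQCRB and UQCRH (ATP5EP2, ATP5L2, UQCRBP1, UQCRHL), and ATP5S and ATP5SL, now named DMAC2L and DMAC2, which are not counted here as subunits. A minimum count of 10 left 79 of the 81 to be tested, among 15381 genes in all. ATP5J2-PTCD1 (0 to 2 counts per library) and ATP5L2 (at most 0.459 CPM, the count relative to a TMM-scaled library size) did not pass. The cytochrome c1 gene CYC1 and other subunits whose symbols lie outside the rule are given as a separate list.

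The respiratory chain passes electrons from NADH and succinate to oxygen and pumps protons across the inner mitochondrial membrane. Complex I (NADH dehydrogenase) and complex II (succinate dehydrogenase) feed ubiquinone, complex III passes electrons on to cytochrome c, complex IV reduces oxygen, and complex V (ATP synthase) uses the proton gradient to make ATP. Most subunits are made from nuclear genes and imported, and in melanoma the chain is known for its link to the melanocyte factor MITF and the coactivator PGC-1α (PPARGC1A).

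All cells were A375 sorted for surface integrin β4 (ITGB4) with a FITC-labelled antibody, against a gate set on unstained cells. ITGB4(-) and ITGB4(+) are the negative and the positive sort of parental cells with no migration. The other groups were taken through membranes with 5 µm pores and a fibronectin coat. Bottom10-ITGB4neg and Bottom10-ITGB4pos crossed in 10 rounds, while Top10-ITGB4neg and Top10-ITGB4pos failed to cross in 10 rounds. Bottom5-ITGB4neg crossed in 5 rounds, and Top5-ITGB4pos failed to cross in 5. ITGB4(-)-BottomR4 and ITGB4(+)-BottomR5 are parental cells sorted as negative or positive that then crossed in 4 and in 5 rounds. Each of the 10 groups has 3 libraries, which the labels number as biological replicates. Whether these came from separate cultures is not said, so a p-value reflects only how far these samples spread, which may be technical. The series text also mentions a clonal population, not analysed here. In bulk RNA of sorted cells, fewer cells of a kind and less RNA per cell cannot be told apart.

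Gene counts per library ran from 14258919 to 29134945, with a median of 19571656. ITGB4 itself was at 24.6 to 33.7 CPM in ITGB4(-) and at 35.2 to 168 in ITGB4(+), so the parental sorts did not overlap. The other labels were not matched as closely at the RNA level. The negative and positive sorts overlapped after 10 rounds, at 3.72 to 13.3 and 9.84 to 56.5 CPM in Top10 cells and at 24.6 to 87.8 and 34.3 to 255 in Bottom10 cells. Top5-ITGB4pos, at 17.9 to 45.2, overlapped ITGB4(-), and Bottom5-ITGB4neg, at 51.0 to 157, lay within the range of ITGB4(+). The groups sorted before migration overlapped too. ITGB4(-)-BottomR4 was at 27.2 to 322 CPM with a median of 56.4, and ITGB4(+)-BottomR5 at 103 to 366. The mean of ITGB4(-)-BottomR4, 135 CPM, was above that of ITGB4(+), 100 CPM. Groups are named by their sort label throughout. The labelled cell type was checked against markers. SOX10, which defines the neural crest lineage of melanoma, was at 287 to 1460 CPM. Among the pigment genes TYR, MLANA, TYRP1 and PMEL were at most 0.0663, 0.539, 1.04 and 1.68 CPM, while DCT ran from 0 to 13.97. Lists for other cell types were not all near 0. The summed level of 8 keratinocyte genes was 75.0 to 228 CPM, mostly KRT10 (62.9 to 187), with KRT14 at up to 39.95 and KRT5 at most 0.811. Its highest sum was in replicate 2 of ITGB4(-)-BottomR4, and its part in the results was not tested. The 6 immune genes summed to 28.7 to 158 CPM, mostly the lysosomal gene CD68 (22.5 to 155), with PTPRC at most 0.160 and CD3E at 0 in every library. The 8 fibroblast genes summed to 19.96 to 57.6 CPM, with PDGFRB at 7.13 to 34.9, COL1A1 at up to 17.7 and COL1A2 at most 0.497. The 6 endothelial genes summed to 4.27 to 24.4 CPM, with KDR at up to 21.6, TIE1 at up to 13.4 and PECAM1 at most 0.309. In 6 libraries the second principal component of all genes was above 30: replicate 1 of Top10-ITGB4neg, replicate 3 of Bottom10-ITGB4pos, replicate 2 of ITGB4(-)-BottomR4, replicate 2 of Bottom5-ITGB4neg, and replicates 1 and 3 of Top5-ITGB4pos. Results that rest on them are given with and without them.

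The promoters of the chain carry sites for a small set of factors, and the stretches of 110 bases just before the transcription start are shown for 6 members. ATP5I, ATP5E, NDUFS6 and NDUFB1 had some of the widest ranges between groups, and NDUFS1 and UQCRC2 went against the other members, as the values below show. Sequences are RefSeq's on GRCh38.p14, 5′ to 3′ on the gene's own strand, and capitals mark matches to the 5 motifs that follow.
ATP5I (chr4:674277-674386, minus strand): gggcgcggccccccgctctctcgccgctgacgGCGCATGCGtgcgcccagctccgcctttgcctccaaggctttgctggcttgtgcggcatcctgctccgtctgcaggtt
ATP5E (chr20:59032336-59032445, minus strand): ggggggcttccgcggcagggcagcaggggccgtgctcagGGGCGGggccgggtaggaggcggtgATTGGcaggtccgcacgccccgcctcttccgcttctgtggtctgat
NDUFS6 (chr5:1801297-1801406, plus strand): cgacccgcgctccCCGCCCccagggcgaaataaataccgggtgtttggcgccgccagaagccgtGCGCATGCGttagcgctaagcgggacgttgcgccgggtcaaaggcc
NDUFB1 (chr14:92121707-92121816, minus strand): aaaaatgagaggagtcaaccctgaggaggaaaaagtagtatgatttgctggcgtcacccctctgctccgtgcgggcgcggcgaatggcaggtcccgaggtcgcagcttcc
NDUFS1 (chr2:206159445-206159554, minus strand, the first of 2 starts listed): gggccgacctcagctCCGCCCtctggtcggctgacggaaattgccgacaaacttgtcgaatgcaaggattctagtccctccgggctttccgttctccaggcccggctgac
UQCRC2 (chr16:21953251-21953360, plus strand): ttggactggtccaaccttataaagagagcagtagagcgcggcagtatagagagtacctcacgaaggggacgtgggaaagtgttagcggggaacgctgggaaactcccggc

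The 5 motifs were searched on both strands of 300-base windows, and a base could count for more than 1 motif. Windows were found for 61 of the 74 subunit genes (73 windows) and set beside 35116 windows of all genes. A site of nuclear respiratory factor 1 (GCGCANGCG) was in 28.8% of the members' windows and in 7.52% of all windows. An ETS site (CCGGAAG) was in 28.8% against 10.3%, and a YY1 site (AAGATGGC) in 17.8% against 2.89%. The SP1 site GGGCGG was in 61.6% against 44.95%, and the CCAAT box in 31.5% against 34.6%. These are descriptions of letters in a window. In the stretches printed, the NRF1 letters stand in ATP5I and NDUFS6, and none of the 5 motifs in NDUFB1 and UQCRC2, whose full windows hold a CCAAT box.

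Levels per length differed widely between subunits of 1 complex. Levels were divided by the median length of a gene's protein-coding transcripts in a GENCODE annotation, which need not be the transcript these cells make. All 74 subunit genes lay above the median level per kilobase of the tested genes, and 61 of them in the top 10%. In complex I, NDUFB9, an accessory subunit of the membrane arm, was highest at 305 CPM per kilobase and NDUFV3, an accessory subunit beside the flavoprotein, lowest at 8.78, a 34.8-fold range. Complex II spanned 4.79-fold, from 66.9 for SDHA, which binds the flavin, to 320 for SDHC, a membrane anchor. That range rests on the lengths used, 2107.5 bases for SDHA and 460 for SDHC. Not divided by length, SDHA was at 141 CPM and SDHC at 147. In complex III the hinge protein gene UQCRH had 728 CPM per kilobase and the Rieske iron-sulfur protein gene UQCRFS1 27.9. In complex IV COX4I1 had 498 and NDUFA4 57.1. In complex V ATP5B, the catalytic β subunit, had 544 and ATP5E, the small ε subunit, 93.0. The low places of UQCRFS1, NDUFA4 and ATP5E rest on the lengths used, which were 3475, 2130 and 1878 bases. Not divided by length, they were at 97.1, 122 and 175 CPM. That is above UQCR10 (41.5), COX6C (81.5) and ATP5G1 (84.3) of the same complexes. The medians of the 5 complexes ran from 93.3 CPM per kilobase in complex I to 262 in complex IV. Fixed core subunits had mean levels of 209 CPM (NDUFV1), 145 (SDHB), 246 (UQCRC1), 104 (COX5B) and 420 (ATP5A1) over the 30 libraries.

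Together the 81 genes took up a near-constant share of most libraries and a larger one in a few. The median share of gene counts was 0.961%, and it was lowest at 0.827% in replicate 1 of Bottom5-ITGB4neg and highest at 2.00% in replicate 2 of ITGB4(-)-BottomR4. The 95% Wilson interval was at most 0.00721 percentage points to each side, which covers counting error only. In ITGB4(-)-BottomR4 the 3 shares were 0.966, 2.00 and 1.02%, and in Top5-ITGB4pos 1.97, 0.987 and 1.43%. Bottom5-ITGB4neg had 0.827, 1.44 and 0.956%, Top10-ITGB4neg 1.24, 0.853 and 0.936%, and Bottom10-ITGB4pos 0.841, 0.844 and 1.31%. In each of these 5 groups the spread between replicates came from 1 or 2 high libraries. The other groups were tighter: 0.832 to 0.989% in ITGB4(-), 0.884 to 0.974% in ITGB4(+), 0.877 to 0.933% in Top10-ITGB4pos, 0.881 to 0.936% in Bottom10-ITGB4neg and 1.03 to 1.09% in ITGB4(+)-BottomR5. The last group lay above both parental sorts in all 3 libraries.

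**Figure D1:**
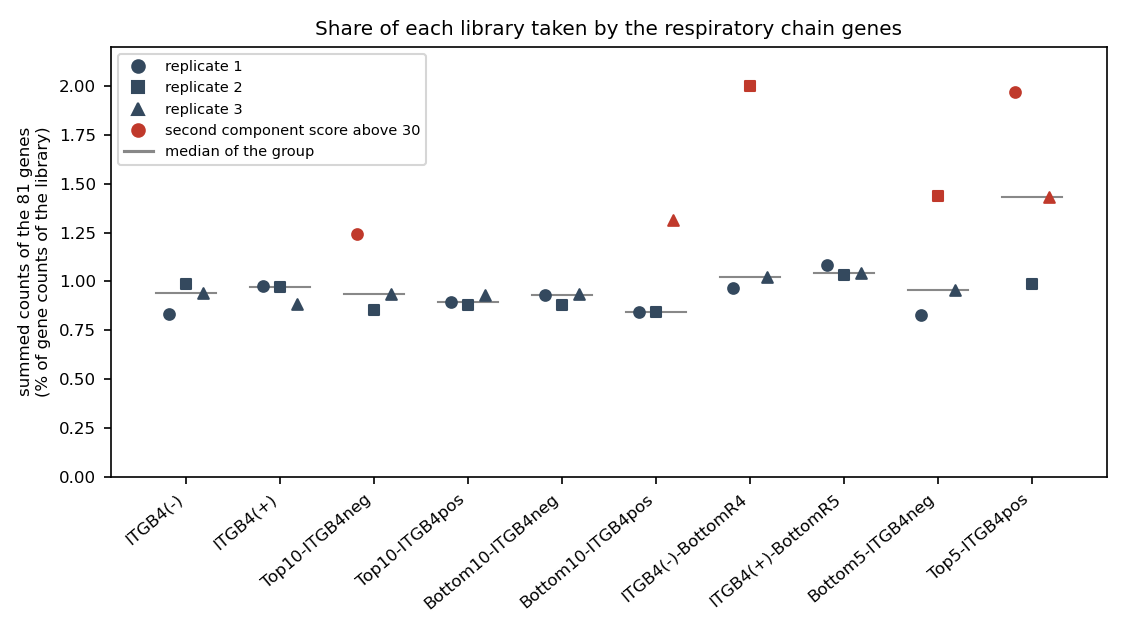
Share of gene counts taken by the 81 respiratory chain genes (y axis, percent) in each library, by group (x axis). Symbols give the replicate number, the grey bar is the group's median, and red marks the 6 libraries with a second component score above 30, which reach 1.24 to 2.00%.

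The members of the high libraries moved together across all 5 complexes. Against the mean of the other 2 libraries of its group, replicate 2 of ITGB4(-)-BottomR4 was higher in 72 of 79 members, by a median of 1.41 on the log2 scale, and at least 2-fold higher in 63. The medians there were 1.48 for complex I, 0.86 for complex II, 1.46 for complex III, 1.72 for complex IV and 1.38 for complex V. Replicate 2 of Bottom5-ITGB4neg was higher in 77 members (median 0.96) and replicate 1 of Top10-ITGB4neg in 77 (median 0.61). Replicate 3 of Bottom10-ITGB4pos was higher in 73 (median 0.90). In Top5-ITGB4pos replicate 1 was higher than the mean of the other 2 in 72 members (median 0.96) and replicate 3 in 53 (median 0.10), while replicate 2 was higher in 5 (median -1.11). Complex II had the smallest median of the 5 complexes in 5 of these 6 libraries, the exception being replicate 3 of Top5-ITGB4pos. The reference of that library holds replicate 1, itself a high library. Relative to each gene's median over the 30 libraries, the members' median in replicate 3 of Top5-ITGB4pos was 0.82. On that scale complex II was smallest there too, at 0.52, beside 0.79 to 0.88 for the other complexes.

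Other lists were high in the same libraries. In replicate 2 of ITGB4(-)-BottomR4 the cytosolic ribosome (85 genes tested) was up by a median of 1.45, the mitochondrial ribosome (77) by 0.83, proteasome subunits (37) by 0.82, complex IV assembly factors (23) by 0.90, and all 771 tested genes under 800 bases by 1.06. The 16 regulators of respiratory genes stood at -0.13 and the 17 genes of the citrate cycle and pyruvate dehydrogenase at 0.01. Replicate 1 of Top5-ITGB4pos had 1.41 for the cytosolic ribosome, 0.37 for the mitochondrial ribosome, -0.10 for the proteasome and 0.70 for genes under 800 bases. Its reference holds replicate 3, also a high library. Relative to each gene's median over the 30 libraries, these lists were at 1.64, 0.70, 0.29 and 0.98 in replicate 1, in that order. In replicate 3 of Bottom10-ITGB4pos the proteasome (0.97) and the mitochondrial ribosome (0.90) stood as high as the members (0.90), and the cytosolic ribosome at 0.47. The share of reads that matched more than 1 place was 12.6% in replicate 2 of ITGB4(-)-BottomR4 beside 7.96 and 8.004% in the other 2, and 13.3% in replicate 1 of Top5-ITGB4pos beside 8.31 and 9.68%. It was 10.0% in replicate 2 of Bottom5-ITGB4neg beside 9.21 and 8.37%. In replicate 1 of Top10-ITGB4neg it was 9.16% beside 8.27 and 8.08%. Replicate 3 of Bottom10-ITGB4pos, at 9.32%, was close to replicate 2 of its group at 9.20%, with replicate 1 at 8.18%. The part of these in the members' levels was not tested.

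**Figure D2:**
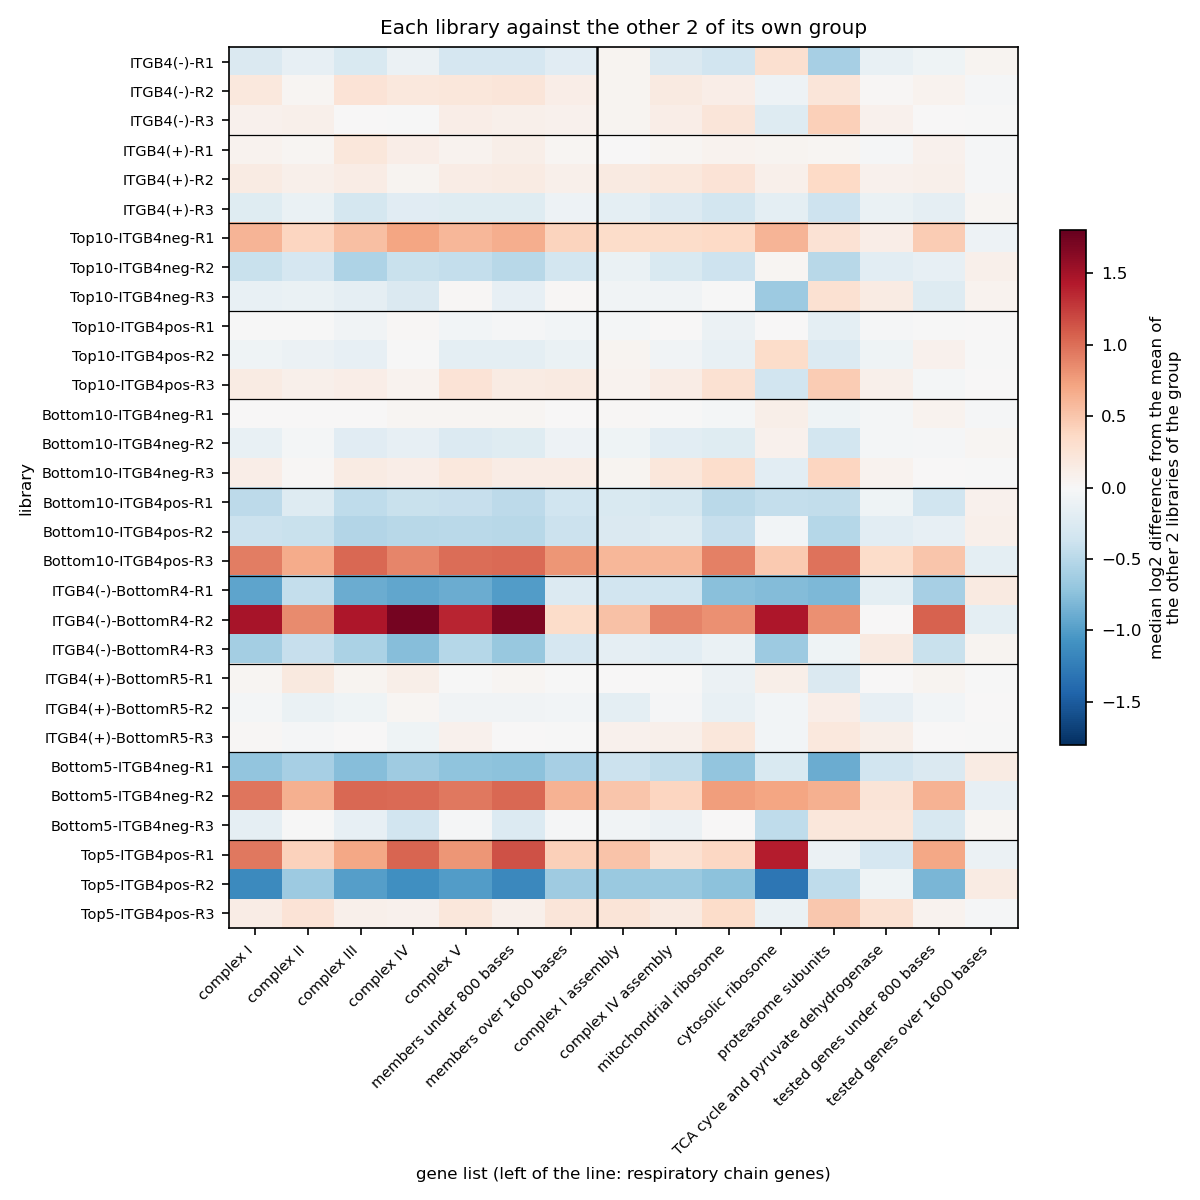
Median log2 difference of each library (rows, 3 per group) from the mean of the other 2 libraries of its group, for lists of genes (columns), with red for higher and blue for lower. All 5 complexes are red in replicate 2 of ITGB4(-)-BottomR4 (0.86 to 1.72), and the ribosome and the short genes are red in the same row.

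Measured against the other 2 libraries of the group, the shorter members shifted most in 5 of the 6 libraries. The tested members had a median transcript length of 750 bases and all tested genes 2512, and 56.96% of the members were under 800 bases against 5.45% of all genes with a length. In replicate 2 of ITGB4(-)-BottomR4 the 45 members under 800 bases were up by a median of 1.68 and the 15 members over 1600 bases by 0.34. In replicate 1 of Top5-ITGB4pos these medians were 1.15 and 0.43, and in replicate 3 of Bottom10-ITGB4pos 1.03 and 0.79. Across the 79 members, which share each library, the correlation of log2 length with the shift was -0.55 in replicate 2 of ITGB4(-)-BottomR4, -0.53 in replicate 1 of Top5-ITGB4pos, -0.57 in replicate 1 of Top10-ITGB4neg and -0.50 in replicate 2 of Bottom5-ITGB4neg. It was -0.21 in replicate 3 of Bottom10-ITGB4pos. Replicate 3 of Top5-ITGB4pos was at 0.27, with medians of 0.09 for the members under 800 bases and 0.22 for those over 1600. Its reference, however, holds replicate 1, itself a high library. Relative to each gene's median over the 30 libraries, replicate 3 was at 0.87 for members under 800 bases and 0.60 for those over 1600. The correlations are across genes, which are not independent replicates.

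**Figure D3:**
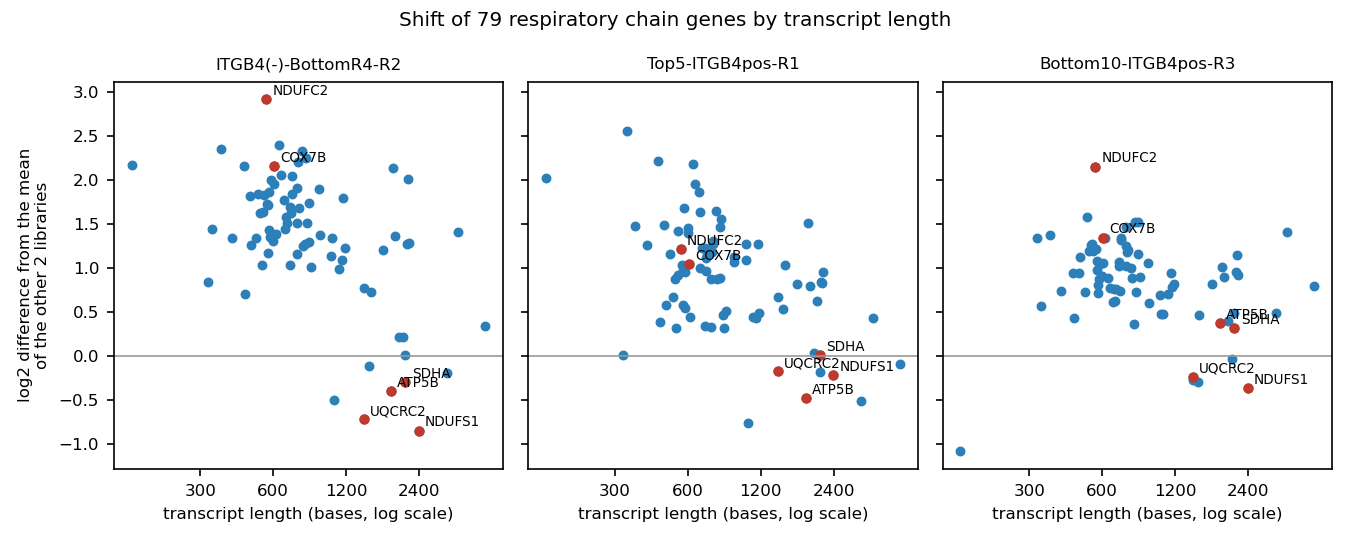
Log2 difference of each of 79 members from the mean of the other 2 libraries of its group (y axis) against transcript length in bases (x axis, log scale), in 3 libraries, with 6 members in red. NDUFC2 is highest in the left panel at 2.92, and NDUFS1 lies below 0 in all 3.

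Single members show the pattern in CPM. COX7B, a small subunit of complex IV, was at 73.5, 344 and 81.2 CPM in ITGB4(-)-BottomR4 and at 42.7, 66.6 and 61.3 in ITGB4(-). It was at 196, 71.3 and 126 in Top5-ITGB4pos and at 72.9, 63.9 and 61.4 in ITGB4(+). The high values are 1 library in the first group and 2 in the second. UQCRH was at 328, 1462 and 431 CPM in ITGB4(-)-BottomR4 and at 294 to 344 in ITGB4(-). COX4I1, the subunit through which complex IV is regulated by nucleotides, was at 355, 883 and 391 CPM in ITGB4(-)-BottomR4 against 299 to 323 in ITGB4(-). ATP5I, the e subunit in the dimer interface of ATP synthase, whose promoter is printed above, was at 69.6, 437 and 105 CPM against 54.5, 80.7 and 77.4. In ATP5I the first library of the migrated group lay within the parental range. NDUFS6, a zinc-binding subunit of complex I, was at 95.5, 522 and 125 CPM against 56.8, 105 and 105.

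The 8 members whose group means ranged most were NDUFC2, ATP5I, COX6C, ATP5E, NDUFS6, NDUFB1, NDUFB2 and COX7B. For NDUFC2, an accessory subunit of complex I, the lowest library had 14.1 CPM, in Bottom5-ITGB4neg, and the highest 268, in ITGB4(-)-BottomR4. The range of its group means was 1.59 on the log2 scale beside an SD within groups of 0.92. For NDUFB1, another small subunit of complex I, the means ranged by 1.30 with an SD of 0.66 within groups, and for COX6C, a membrane subunit of complex IV, by 1.38 with an SD of 0.68. In each of these the largest group mean held 1 or 2 of the high libraries. NDUFC2 and ATP5E overlap read-through genes whose rows held 0 to 4 counts (NDUFC2-KCTD14) and 0 to 5 counts (SLMO2-ATP5E). Reads in both may count for neither, so their levels are uncertain, as are those of ATP5J2, of members with near-identical copies (ATP5E, ATP5L, UQCRB, UQCRH), and of NDUFA6, NDUFB2 and NDUFV2, which have antisense genes in the files, since no strand setting was given.

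At the other end, a few members ranged little. SDHA was at 115 to 181 CPM over the 30 libraries, and its group means ranged by 0.13 on the log2 scale with an SD within groups of 0.16. ATP5B was at 761 to 1165 CPM (range of group means 0.16, SD 0.19). ATP5A1, the α subunit that forms the catalytic ring with ATP5B, was at 325 to 510 CPM (range 0.17, SD 0.16). In these 3 the range of the group means was about as large as the spread within groups.

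NDUFS1, the large iron-sulfur subunit of complex I, went the other way. It was at 103, 52.4 and 87.2 CPM in ITGB4(-)-BottomR4, lowest in the library where most members were highest. In Top5-ITGB4pos it was at 63.0, 80.1 and 66.9 CPM, and in Bottom5-ITGB4neg at 96.3, 65.5 and 85.4. Its level was most even in Top10-ITGB4pos, at 105, 106 and 106 CPM, and in Bottom10-ITGB4neg, at 106, 110.5 and 106. By group mean the order from the highest was Bottom10-ITGB4neg (108 ± 2.53 CPM, SD, n = 3), Top10-ITGB4pos (106 ± 0.576), Top10-ITGB4neg (95.8 ± 8.49), ITGB4(-) (95.2 ± 4.91), Bottom10-ITGB4pos (90.2 ± 13.4), ITGB4(+) (88.999 ± 7.60), Bottom5-ITGB4neg (82.4 ± 15.6), ITGB4(+)-BottomR5 (81.1 ± 3.50), ITGB4(-)-BottomR4 (80.8 ± 25.8) and Top5-ITGB4pos (70.0 ± 8.98). Neighbours in that order differed by less than their spread, except that Top10-ITGB4pos and Top10-ITGB4neg did not overlap. UQCRC2, a core protein of complex III, was at 180, 101 and 154 CPM in ITGB4(-)-BottomR4.

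**Figure D4:**
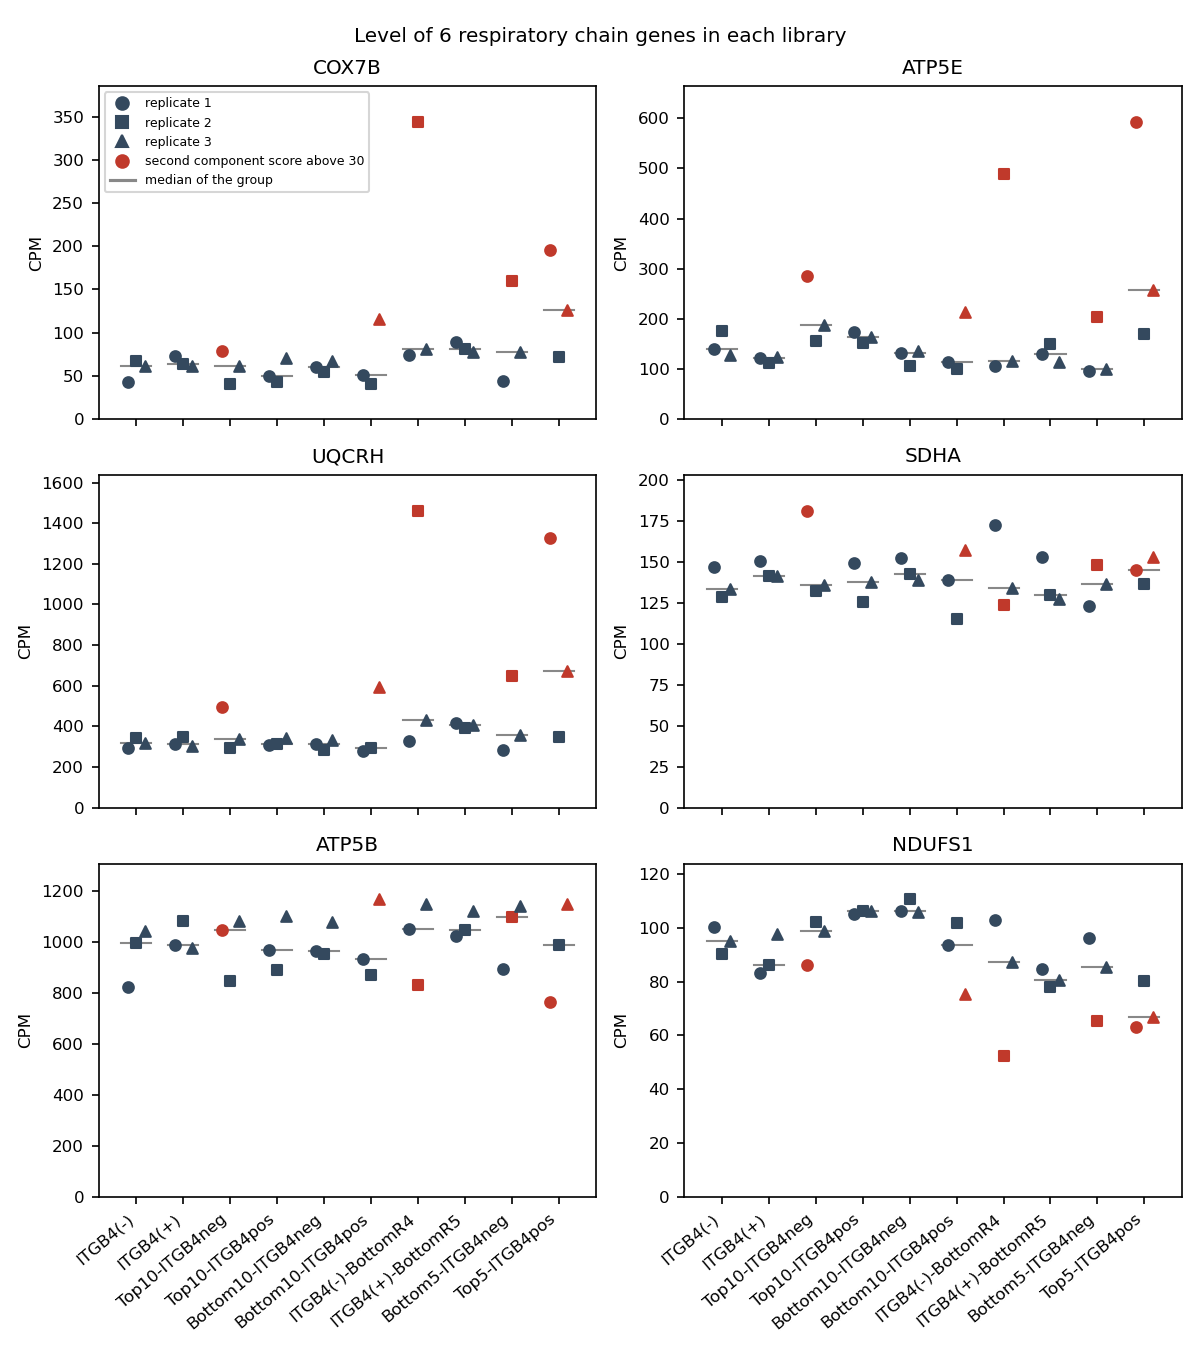
CPM of COX7B, ATP5E, UQCRH, SDHA, ATP5B and NDUFS1 in each library (y axes from 0), by group, with the group median as a grey bar and red for the 6 libraries with a second component score above 30. COX7B and UQCRH are highest at 344 and 1462 CPM in replicate 2 of ITGB4(-)-BottomR4, where NDUFS1 is lowest at 52.4.

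The correlation over the 30 libraries of each member's log2 level with the mean of the other members had a median of 0.947, and 52 of 79 members were above 0.9. Over the 24 libraries without the 6 that stand apart, a setting chosen after seeing the data, the median was 0.758 and 18 members were above 0.9. NDUFS1 was at -0.89, UQCRC2 at -0.62 and ATP5SL at -0.27, while ATP5B (-0.05), NDUFA10 (-0.02) and SDHA (0.18) were near 0. Over the 24 libraries NDUFS1 was at -0.63, UQCRC2 at -0.05, ATP5SL at 0.50, ATP5B at 0.82, NDUFA10 at -0.62 and SDHA at 0.15. Among these NDUFS1 was negative in both, and ATP5B was near 0 only with the 6 libraries. Outside the members, the 5 genes most like their mean were SNRPD2 (0.990), FAU (0.988), C14orf2 (0.987), NAA38 (0.987) and AP2S1 (0.985). C14orf2 encodes a small subunit of ATP synthase whose symbol the rule does not take, SNRPD2 a protein of the spliceosome core and FAU a ribosomal protein. All 5 are short, from 538 to 793 bases.

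The parental sorts were compared first, since this asks whether the chain differs with surface ITGB4 before any migration. None of the 79 members was called between ITGB4(+) and ITGB4(-) (edgeR quasi-likelihood test over all genes, Benjamini-Hochberg adjusted p under 0.05), where 0.0585% of all tested genes were. At an unadjusted p under 0.05 there were 0 members, where 4.45% of all genes passed, and DESeq2 called 0. Shares of all genes are those of edgeR unless DESeq2 is named. DESeq2 called 0 to 2.56% of all genes in the 15 tests, the interaction included, in which it called 0 members. The median log2 fold change was 0.06 with 55 of 79 above 0, beside -0.01 for all tested genes. ATP5G1, a gene of the membrane ring of ATP synthase, had the highest value (0.24 ± 0.37, SE) and ATP5E the lowest among members at 5 CPM or more (-0.31 ± 0.46). ATP5E was at 140, 175 and 128 CPM in ITGB4(-) and at 122, 111 and 124 in ITGB4(+), without overlap. Members without overlap were 0 higher and 2 lower (ATP5E and its copy ATP5EP2) in ITGB4(+), where 4.47 and 4.96% of all genes were.

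After 10 rounds the sort comparisons moved with single libraries. Between Top10-ITGB4pos and Top10-ITGB4neg 0 members were called by edgeR or DESeq2 and 0 had an unadjusted p under 0.05, where 0.013% of all genes were called and 1.71% had such a p. Without overlap 1 member (NDUFS1, 0.14) was higher and 1 (NDUFS8, -0.33) lower in the positive sort, where 2.96 and 2.89% of all genes were. The median was -0.23, with 4 of 79 above 0, and it was 0.00 without the 6 libraries. The lowest member was NDUFA11 (-0.43 ± 0.44), a membrane subunit of complex I. Between Bottom10-ITGB4pos and Bottom10-ITGB4neg 0 were called by either tool and 0 had an unadjusted p under 0.05, where edgeR called 0% and DESeq2 0.0521% of all genes and 3.57% had such a p in edgeR. Without overlap 1 member (ATP5G2, 0.36) was higher and 1 (NDUFS1, -0.25) lower in the positive sort, where 5.48 and 5.84% of all genes were. The median was 0.25 with 73 above 0, and -0.15 without the 6 libraries, so the sign turned. ATP5D, the δ subunit of the ATP synthase stalk, was at 88.0, 101 and 192 CPM in Bottom10-ITGB4pos and at 89.7, 72.6 and 103 in Bottom10-ITGB4neg (0.52 ± 0.40). Without replicate 3 of Bottom10-ITGB4pos the median over the members was also -0.15.

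Cells that crossed in 10 rounds were set against cells that did not, which asks whether the chain differs with the passage through pores. The fit held no block for replicate number, although replicate numbers paired these libraries, as described below. The same holds for the sort comparisons after 10 rounds. In the negative sort 0 members were called by edgeR or DESeq2 and 0 had an unadjusted p under 0.05, where edgeR called 1.33% and DESeq2 2.56% of all genes and 9.04% had such a p in edgeR. The median was -0.23 with 6 of 79 above 0, and 0.00 without the 6 libraries. ATP5E was at 132, 106 and 135 CPM in Bottom10-ITGB4neg and at 284, 156 and 188 in Top10-ITGB4neg (-0.75 ± 0.46, edgeR adjusted p = 0.773). The groups of ATP5E did not overlap. Without overlap, 4 members (ATP5E, ATP5EP2, NDUFC1 and NDUFS3) were lower and 1, NDUFS1, was higher in the crossed cells, where 7.43 and 8.68% of all genes were. UQCRC2 had the highest value in crossed negative cells (0.20 ± 0.17). In the positive sort 0 members were called by edgeR or DESeq2 and 0 had an unadjusted p under 0.05, where edgeR called 0.943% and DESeq2 1.85% of all genes and 9% had such a p in edgeR. Without overlap 1 (NDUFS8) was higher and 1 (NDUFS1) lower in the crossed cells, where 7.61 and 7.58% of all genes were. There the median was 0.27 with 71 above 0, and -0.14 without the 6 libraries. NDUFS8, an iron-sulfur subunit of complex I, had the highest value (0.57 ± 0.32, edgeR adjusted p = 0.679). It was at 74.5, 82.2 and 154 CPM in the crossed and at 65.0, 71.8 and 72.6 in the other cells. The difference between the sorts in the effect of crossing was tested as an interaction, and 0 members were called by edgeR or DESeq2 and 0 had an unadjusted p under 0.05, where 0% of all genes were called and 2.87% had such a p. Its median was 0.48, and -0.15 without the 6 libraries.

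Against parental cells of the same sort, cells of 10 rounds showed no called member either. In these 4 comparisons, which share the parental libraries in pairs, 0 members were called by edgeR or DESeq2 and 0 had an unadjusted p under 0.05 in edgeR. Of all genes 0.325% were called for Bottom10-ITGB4neg, 0.247% for Bottom10-ITGB4pos, 0.0455% for Top10-ITGB4neg and 0.384% for Top10-ITGB4pos. An unadjusted p under 0.05 was had by 7.64, 8.3, 4.74 and 9.05% of all genes in that order. The medians were 0.04, 0.23, 0.21 and -0.04 in that order. Without the 6 libraries they were 0.03, -0.19, 0.01 and -0.05. ATP5G2, a second gene of the membrane ring, was at 213, 245 and 293 CPM in Bottom10-ITGB4pos against 191, 174 and 156 in ITGB4(+) (0.53 ± 0.35, edgeR adjusted p = 0.699), without overlap. Without overlap there were 7 members higher and 0 lower in that comparison, where 10.4 and 9.08% of all genes were. For Bottom10-ITGB4neg 4 (UQCRC2, ATP5H, NDUFS1 and SDHC) were higher and 1 (ATP5EP2) lower, where 9.03 and 7.96% of all genes were. For Top10-ITGB4neg 3 (NDUFS7, NDUFC1 and NDUFS3) were higher and 0 lower, where 3.48 and 5.4% were, and for Top10-ITGB4pos 5 (ATP5E, NDUFB5, ATP5S, NDUFS1 and UQCRC2) were higher and 1 (NDUFA1) lower, where 8.6 and 8.64% were. NDUFA13, a complex I subunit also known as GRIM-19, had the highest value in Top10-ITGB4neg (0.53 ± 0.40), with 373, 237 and 189 CPM against 198, 205 and 150. UQCR10, a small subunit of complex III, had the lowest in Top10-ITGB4pos (-0.46 ± 0.41), with 24.4, 23.1 and 34.3 CPM against 42.8, 40.5 and 29.6. Both of these overlapped with the parental libraries. NDUFS1 did not overlap between Top10-ITGB4pos and ITGB4(+), at 105 to 106 against 83.1 to 97.6 CPM (0.25 ± 0.18, edgeR adjusted p = 0.744).

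The comparison of ITGB4(+)-BottomR5 with ITGB4(+) involves none of the 6 libraries. The positive cells that crossed in 5 rounds after the sort had a median log2 fold change of 0.20 over the members, and 69 of 79 were above 0, beside 0.01 for all tested genes. Without overlap of the 3 and 3 libraries 35 members were higher and 0 lower, where 7.12 and 6.92% of all genes were. Of the 35, 16 were of complex I, 9 of complex IV, 6 of complex V, 3 of complex III, 1 was UQCRHL, the copy of UQCRH, and none was of complex II, whose median was -0.07. None of the members was called by edgeR or DESeq2 and 0 had an unadjusted p under 0.05, where 0.039% of all genes were called and 3.01% had such a p. COX4I1 was at 394, 394 and 377 CPM in the crossed cells and at 349, 323 and 280 in ITGB4(+). UQCRH was at 416, 394 and 408 CPM against 312, 350.5 and 303, a difference of 0.33 on the log2 scale. NDUFB4, a membrane subunit of complex I, had 88.2 ± 5.24 CPM against 65.9 ± 4.78 (SD, n = 3), a difference of 0.42 ± 0.35 in log2 (edgeR adjusted p = 1.00). NDUFA3 had the highest value (0.43 ± 0.37), though its libraries overlapped. The SE comes from a fit in which all 10 groups share 1 estimate of the spread. Fitted with only these 2 groups, 22 members had an unadjusted p under 0.05, where 8.01% of all genes did, and 0 were called. NDUFS1 was the lowest member at 5 CPM or more (-0.13 ± 0.18). Of 85 genes of the cytosolic ribosome 60 were higher without overlap in the same comparison, and of 77 of the mitochondrial ribosome 7. With the trend on transcript length removed from each library, the members' median was 0.05.

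The largest differences were in the 3 comparisons that hold replicate 2 of ITGB4(-)-BottomR4 or replicates 1 and 3 of Top5-ITGB4pos. Between ITGB4(-)-BottomR4 and ITGB4(-) the median was 0.84 with 75 of 79 above 0. By edgeR 0 were called, where 2% of all genes were, and DESeq2 called 1, COX7B (1.54, adjusted p = 0.0464), where it called 4.71% of all genes. At an unadjusted p under 0.05 there were 52 members, where 19.5% of all genes passed. COX7B had 166 ± 154 CPM against 56.9 ± 12.5 (SD, n = 3), a log2 difference of 1.55 ± 0.51 (edgeR adjusted p = 0.116). NDUFC2 had the highest value (1.91 ± 0.71, edgeR adjusted p = 0.154), with 27.8, 268 and 44.7 CPM against 17.1, 39.6 and 33.7. Without overlap 19 members were higher and 0 lower, where 9.45 and 8.95% of all genes were. With the trend on transcript length removed the median was 0.29. Without replicate 2 it was 0.19, and without replicate 1, which leaves 2 libraries of which 1 is the high one, 6 members were called (COX7B, ATP5I, NDUFC1, NDUFB6, NDUFA12 and NDUFS6), where 3.39% of all genes were.

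Cells that failed to cross in 5 rounds gave the highest median. Between Top5-ITGB4pos and ITGB4(+) it was 0.96 with 75 of 79 above 0. By edgeR and DESeq2 0 were called, where 0.163% of all genes were by edgeR, and 53 had an unadjusted p under 0.05, where 17.4% of all genes did. Without overlap 32 members were higher and 1, NDUFS1, was lower, where 8.69 and 9.61% of all genes were. COX6C was at 372, 62.2 and 108 CPM in Top5-ITGB4pos and at 54.6, 54.9 and 55.0 in ITGB4(+) (1.72 ± 0.54, edgeR adjusted p = 0.226). NDUFV1, the flavin-binding core subunit where complex I takes electrons from NADH, was at 468, 192 and 274 CPM against 181, 178 and 170 (0.82 ± 0.25, edgeR adjusted p = 0.226). With the length trend removed the median was 0.35. Without the 6 libraries it was 0.11, which rests on replicate 2 alone in Top5-ITGB4pos. With replicate 2 left out, which leaves the 2 high libraries, 32 members were called, where 8.28% of all genes were.

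The comparison of Top10-ITGB4pos with Top5-ITGB4pos was its mirror, since both use the Top5-ITGB4pos libraries. The median was -1.003 with 4 of 79 above 0. By edgeR and DESeq2 0 were called, where 0.0455% of all genes were by edgeR, and 62 had an unadjusted p under 0.05, where 21.7% of all genes did. Without overlap 36 members were lower and 2 (NDUFS1 and UQCRC2) higher after 10 rounds, where 9.94 and 11.5% of all genes were. NDUFS1 was higher after 10 rounds, at 106 ± 0.576 against 70.0 ± 8.98 CPM (SD, n = 3), a log2 difference of 0.60 ± 0.18 (edgeR adjusted p = 0.173). COX6C was at 53.2, 54.1 and 56.1 CPM after 10 rounds (-1.73 ± 0.54, edgeR adjusted p = 0.173). With the length trend removed the median was -0.36. Without the 6 libraries it was -0.14, which again rests on replicate 2 alone in Top5-ITGB4pos. With replicate 2 of Top5-ITGB4pos left out, 34 members were called, 33 lower and NDUFS1 higher, where 6.61% of all genes were.

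Negative cells that crossed in 5 rounds differed less. Between Bottom5-ITGB4neg and ITGB4(-) the median was 0.36 with 72 of 79 above 0, and -0.03 without the 6 libraries. The fit held no block for replicate number here either, although replicate numbers paired these libraries. By edgeR and DESeq2 0 members were called and 0 had an unadjusted p under 0.05, where 0.858% of all genes were called and 9.14% had such a p. Without overlap 2 (NDUFS4 and ATP5H) were higher and 0 lower, where 7.15 and 6.59% of all genes were. COX7B was at 44.3, 160 and 77.2 CPM (0.72 ± 0.50, edgeR adjusted p = 0.741). Between Bottom10-ITGB4neg and Bottom5-ITGB4neg the median was -0.33, and 0.03 without the 6 libraries. There 0 members were called by edgeR or DESeq2, where 0.117% of all genes were, and 1, NDUFS1, had an unadjusted p under 0.05 (0.39 ± 0.18, edgeR adjusted p = 0.687), where 7.22% of all genes did. Without overlap 2 (NDUFS1 and UQCRC2) were higher and 1 (COX6C) lower after 10 rounds, where 6.44 and 6.48% of all genes were.

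**Figure D5:**
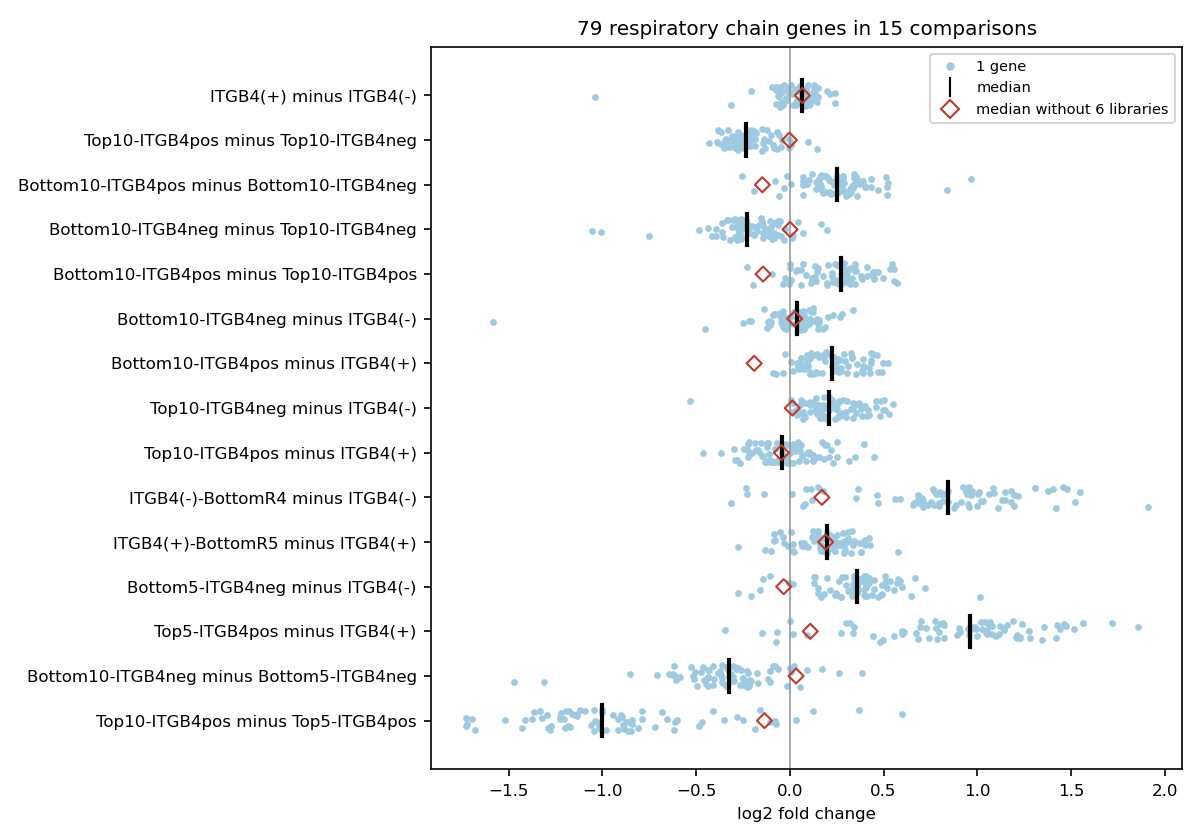
Log2 fold change of each of 79 members (points, x axis) in the 15 comparisons (rows), with the median as a black bar and the median without the 6 libraries as a red diamond. The black bars reach 0.96 and -1.003, and the diamonds lie between -0.19 and 0.19. In rows with Top5-ITGB4pos the diamond rests on replicate 2 alone of that group.

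Genes around the chain were described from lists of their own. None of the 17 complex I, 4 complex II, 6 complex III, 23 complex IV and 4 complex V assembly factors was called in any comparison, nor any of the 9 tested isoforms and subunits outside the symbol rule, 17 citrate cycle genes, 21 genes of import and inner membrane organisation or 9 of mitophagy and dynamics. Of all tested genes edgeR called 0 to 2% in a comparison, so lists this short may hold no call at that share. Of 16 regulators 1 was called in 1 comparison, MITF, lower in Bottom10-ITGB4pos than in ITGB4(+) (edgeR adjusted p = 0.0243). In that comparison 0.247% of all genes were called. The other fixed regulators were not called. PPARGC1A was low in every group, with means from 0.347 CPM in Top10-ITGB4neg to 1.59 in ITGB4(+)-BottomR5. It was at 0.529 to 1.35 CPM in ITGB4(-), 0.260 to 0.509 in Top10-ITGB4neg and 0.978 to 1.61 in Bottom5-ITGB4neg. NRF1, whose site is marked in the promoters above, was at 14.6 to 28.5 CPM over all libraries, and TFAM, which packages and transcribes mitochondrial DNA, at 52.1 to 128. ESRRA, a nuclear receptor that partners PGC-1α, was at 39.5 to 83.004 CPM in ITGB4(-)-BottomR4. CYC1, the cytochrome c1 of complex III, had 82.7 CPM in 1 library of ITGB4(-)-BottomR4 and 232 and 254 in the other 2. In Top5-ITGB4pos it was at 96.3, 235 and 292 CPM, and the group held both a low value and the highest of the 30 libraries. The low value was in 1 library of each group.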

How the data were processed

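Polyadenylated RNA of 30 A375 libraries was analysed. The values deposited by the authors are unnormalised whole-number counts, with a file of gene symbols for each library. The submitters' processing notes name STAR, HTSeq, DESeq and hg19. Their versions, the strand setting and the annotation are not given in the sources used here. Reads assigned to no gene (22.1 to 31.8% of a file) were left out of library sizes. Genes were kept by edgeR's filter (minimum count 10, minimum total 15). Counts were scaled by TMM (as CPM) and fitted in edgeR 4.0.16 (quasi-likelihood, R 4.3.3) with all 10 groups in 1 fit and no block, and p-values were adjusted over 15381 genes (Benjamini-Hochberg, 0.05). The SE was derived from the F statistic, and a prior count of 2 was added for log levels. Lengths came from GENCODE on GRCh38, by symbol (21 members by an older symbol), for 97.3% of tested genes. Gene coordinates are RefSeq's, not those of the counting.

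The members and lists were chosen with earlier results of these data known. Named members were, by rule, those called, the highest and the lowest per comparison at 5 CPM or more, the highest and the lowest level per length of each complex, the 8 widest ranges of group means, those under the filter and 10 core subunits. Others named were chosen after their values were seen. Alternatives were DESeq2 1.42.0, RLE and upper-quartile factors, no filter, only the compared groups, and leaving out each library or the 6 with a second component above 30. A replicate block was fitted over all groups and within the groups of 10 rounds. Added after seeing the data were removal of a per-library length trend (lowess, span 0.3) and correlations without the 6 libraries. So were blocks within the groups of 10 rounds that left out a replicate or removed the length trend. On simulated counts for Bottom10-ITGB4neg against Top10-ITGB4neg over 15381 genes, the fit recovered 26 of 100 simulated 2-fold changes and 68 of 100 simulated 4-fold changes, with 2 false among 96 calls, so most 2-fold changes were missed. Replicate numbers paired the libraries, by correlations above 0.1 for every number after group means were removed, within the Top10 and Bottom10 groups (0.265 to 0.791) and between Bottom5-ITGB4neg and ITGB4(-) (0.379 to 0.590). The pairing comes from the data, not the labels. No 2 libraries of a group were copies.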

Additional observations from a re-analysis of the deposited data

How the results depend on the processing

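Scaling factors, the filter on low counts, the fit of only the compared groups and the replicate block left the count of called members at 0 in all 15 comparisons, and the block changed no call. DESeq2 called 1 member between ITGB4(-)-BottomR4 and ITGB4(-), where it called 4.71% of all genes. With a replicate block within the 4 groups of 10 rounds and all replicates kept, no member was called. Versions of that block that left out a replicate or removed the length trend were chosen after seeing the data. Without replicate 3, 1 member (ATP5E) was called lower in crossed negative cells, at -0.86, where 12.2% of all genes were called. With all replicates and the length trend removed, 1 member was called for crossing in each sort (ATP5E at -0.69 and ATP5C1 at -0.26), where 13.2 and 11.4% of all genes were. In that block without replicate 1 the median log2 fold change was 0.0134 for Top10-ITGB4pos against Top10-ITGB4neg and 0.0176 for crossing in the negative sort.

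Without the 6 libraries the median was -0.0022 for the sort in Top10 cells, -0.1465 for the sort in Bottom10 cells, -0.1428 for crossing in the positive sort, -0.1902 for Bottom10-ITGB4pos against ITGB4(+), 0.1709 for ITGB4(-)-BottomR4 against ITGB4(-), 0.1091 for Top5-ITGB4pos against ITGB4(+) and -0.1354 for Top10-ITGB4pos against Top5-ITGB4pos. With the length trend removed it was 0.0508 for ITGB4(+)-BottomR5 against ITGB4(+), and 0.3455 and -0.3618 for the last 2. Of Top5-ITGB4pos, only replicate 2 was left in the fits without the 6 libraries. The cause of these moves in the median was not tested.

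Leaving out 1 library at a time, the medians ran from -0.3875 to -0.0042 (sort in Top10), -0.1549 to 0.4287 (sort in Bottom10), -0.3912 to 0.0149 (crossing, negative sort), -0.1333 to 0.4338 (crossing, positive sort), -0.1941 to 0.3858 (Bottom10-ITGB4pos against ITGB4(+)) and 0.1904 to 1.0908 (ITGB4(-)-BottomR4 against ITGB4(-)). The lowest values of the 3 comparisons with Bottom10-ITGB4pos came without its replicate 3, the highest of the 2 with Top10-ITGB4neg without its replicate 1, and the lowest for ITGB4(-)-BottomR4 without its replicate 2. Called members ranged from 0 to 6 for ITGB4(-)-BottomR4, 0 to 32 for Top5-ITGB4pos against ITGB4(+) and 0 to 34 for Top10-ITGB4pos against Top5-ITGB4pos. The fits with the most calls called 3.39, 8.28 and 6.61% of all genes.

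Values near 0 changed sign. ATP5SL between Top10-ITGB4neg and ITGB4(-) was 0.0069, and -0.0017 with RLE factors, -0.025 with upper-quartile factors, -0.0018 in DESeq2, -0.0405 without the 6 libraries, -0.1227 with the length trend removed and -0.0647 to 0.0835 with 1 library left out. NDUFS1 between ITGB4(-)-BottomR4 and ITGB4(-) ran from -0.4454 to 0.0001 with 1 library left out.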
